A study of Mus musculus with 4 samples.

Results

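The Notch genes described here are 10: the receptors Notch1, Notch2, Notch3 and Notch4, the ligands Jag1, Jag2, Dll1 and Dll4, and the targets Hey1 and Hes1. They were chosen by exact gene symbol in the array's probe annotation, which found all 10 genes among 18193 named ones, on 19 probe sets. A probe set is a group of short probes that together give 1 signal. Of the 19 probe sets, 13 had a mean signal at or above the median of the array and were tested, and these cover all 10 genes. The other 6 were dimmer and are given as values.

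The study compared 4 pools of mammary tumors on Affymetrix arrays: 2 pools from mice null for St6gal1 (St6gal1-/-) and 2 from wild-type littermates. St6gal1 encodes the enzyme that caps N-glycans with sialic acid in an alpha2-6 linkage. All animals were female C57BL/6 mice carrying PyV-mT, the polyoma virus middle T oncogene that drives the tumors, and were sampled at 110 days of age, 14 days after tumor onset. Neither the promoter of the transgene nor the construction of the null allele is given in the sources used here. Each pool held 3 tumors from 3 animals, and the design pairs 1 null with 1 wild-type pool in each of 2 sets. The p-values refer to these pools, of which there are 2 per genotype, and not to single animals. The limma fit had 1 residual degree of freedom per probe set and 13.0 prior ones. Most of each variance was therefore borrowed from other probe sets of like signal, not measured between these pools.

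Notch receptors are single-pass membrane proteins that are switched on by Jagged and Delta-like ligands on a neighbouring cell. Binding lets a membrane protease and then gamma-secretase cut the receptor, and the freed inner part enters the nucleus, joins the DNA-binding protein RBPJ and turns on targets such as the Hes and Hey repressors. Sugars attached to the outer part of the receptor, among them those extended by the Fringe enzymes, change which ligand it answers to. In the mammary gland the pathway is known for its part in luminal cell fate, and Notch4 was found as an integration site of mouse mammary tumor virus. In vessels, Dll4 and Notch4 are known from endothelium and Notch3 from pericytes and smooth muscle.

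Signals are MAS5 intensities on a linear scale, and log2 ratios were taken after adding 44 to each. Each array had been scaled to the same trimmed mean, and array medians lay between 588 and 619. Gapdh probes at the ends of its transcript gave a 3'/5' ratio, a measure that goes up with RNA degradation, of 0.873 (null) and 0.869 (wild type) for set 1. For set 2 the ratios were 2.13 (null) and 1.57 (wild type), above both of set 1. St6gal1 itself read 2337 and 3642 in the null pools and 2330 and 2796 in the wild-type pools on its tested probe set (limma adjusted p = 0.554). The null label was thus not borne out by a lower signal, and whether this probe set lies in the deleted part is not known, so directions rest on the labels. Signals of Y-linked probe sets, which have no target in female mice, reached 564.5, and a signal at or below that level could not be told from unspecific binding.

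Most Notch signals were lower in the null tumors, by modest amounts. Of the 13 tested probe sets, 11 were lower in the null pool of both sets, 0 were higher in both and 2 went opposite ways, while 34.9% of the 22519 probe sets tested on the array were lower in both sets and 28.4% higher in both. In limma, 4 of the 13 fell past a Benjamini-Hochberg adjusted p of 0.05 and 0 rose, where 7.3% of all tested probe sets were called, 3.25% lower and 4.05% higher. The 4 were both probe sets of Notch1, 1 of the 2 of Notch3, and that of Hey1. The median log2 ratio, null over wild type, was -0.33 over the 13, beside -0.026 over all probe sets tested. On 6 of the 13, both null pools lay below both wild-type pools, which 16.9% of all tested probe sets did, while 15.1% had both null pools above. Without the set term limma called 0 of the 13 (2 at an unadjusted p under 0.05), and with the set term but no intensity trend of the variance it also called 0 (4 unadjusted).

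**Figure D1:**
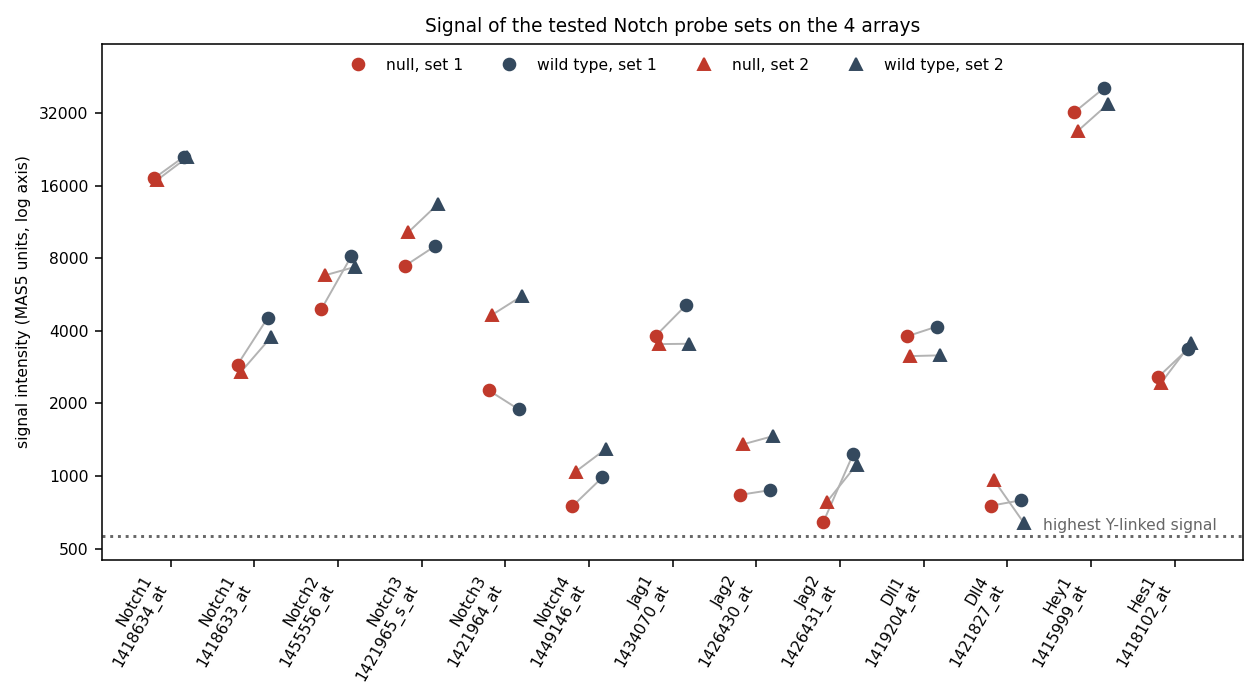
Signal intensity (MAS5 units, log axis) of the 13 tested Notch probe sets; red marks are null pools, dark marks wild-type pools, circles set 1 and triangles set 2, and a grey line joins the 2 pools of a set. Lines slope up to the wild-type pool in both sets for 11 probe sets, and the dotted line is the highest Y-linked signal, 564.5.

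The receptor Notch1, which T cell development depends on, fell on both of its probe sets. The brighter one (1418634_at) read 17148 and 16905 in the null pools of sets 1 and 2, against 21112 and 20995 in the wild-type pools. The 4 values formed 2 groups that did not overlap, and each set gave nearly the same log2 ratio, -0.30 and -0.31. The limma estimate was -0.31 ± 0.084 (SE, n = 2 pools per genotype, adjusted p = 0.0407), or 80.9% of the wild-type signal. The dimmer one (1418633_at) read 2898 and 2702 in the null pools, against 4530 and 3765 in the wild-type pools. Here too the groups did not overlap, with a log2 ratio of -0.55 ± 0.14 (adjusted p = 0.0218), or 68.1% of the wild-type signal.

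Notch3 gave different answers on its 2 probe sets. The brighter one (1421965_s_at, whose suffix marks probes that may match more than 1 transcript) read 7438 and 10250 in the null pools, against 8982 and 13481 in the wild-type pools. Within each set the null pool was lower, at log2 ratios of -0.27 and -0.39, but the null pool of set 2 read higher than the wild-type pool of set 1. It fell by 0.33 ± 0.094 on the log2 scale (adjusted p = 0.0466), and it missed the threshold under cyclic loess normalization (adjusted p = 0.0577) and with all probe sets tested (adjusted p = 0.0713). The dimmer one (1421964_at) read 2268 and 4654 in the null pools, against 1889 and 5582 in the wild-type pools. Its ratio was positive in set 1 and negative in set 2, 0.26 and -0.26, so that the estimate was near 0 with a 95% interval from -0.33 to 0.33.

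Notch2 and Notch4 did not pass the threshold, although their tested probe sets were lower in the null pool of each set. Notch2, which is broadly expressed, read 4911 and 6791 in the null pools on its bright probe set (1455556_at), against 8165 and 7361 in the wild-type pools. The gap came mostly from set 1, with a log2 ratio of -0.73 there and -0.12 in set 2, and the estimate was -0.42 ± 0.13 (adjusted p = 0.0697). Its dim probe set (1451889_at) read 282 and 541 in the null pools, both within the unspecific level, against 573 and 611 in the wild-type pools. Notch4, the endothelial receptor, read 747 and 1042 in the null pools on its tested probe set (1449146_at), against 987 and 1294 in the wild-type pools. The null pool of set 2 lay above the wild-type pool of set 1, and the estimate of -0.34 had a wide 95% interval, from -0.91 to 0.23 (adjusted p = 0.526). The other 2 Notch4 probe sets were dim. One (1436901_at) was within the unspecific level on all 4 arrays, and the other (1456263_at) read 55.1 and 713 in the null pools, against 170 and 397 in the wild-type pools, with only the null pool of set 2 above that level.

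The ligands showed smaller or less even differences, and 0 of their 5 tested probe sets passed the threshold. Jag1, the Jagged ligand best known from vessels and epithelia, read 3819 and 3524 in the null pools on its bright probe set (1434070_at), against 5109 and 3534 in the wild-type pools. The 2 pools of set 2 were almost equal, so the log2 ratio of -0.21 ± 0.14 (adjusted p = 0.432) came from set 1, where it was -0.42. The other 2 Jag1 probe sets were dim, with 1 of 8 readings above the unspecific level. Jag2, the second Jagged ligand, read 643 and 778 in the null pools on one probe set (1426431_at), against 1237 and 1115 in the wild-type pools. These groups did not overlap, and its log2 ratio of -0.70 ± 0.28 was larger in size than those of the other 12, yet it missed the threshold (adjusted p = 0.174) at this low signal. The second Jag2 probe set (1426430_at) read 835 and 1353 in the null pools, against 873 and 1463 in the wild-type pools, a log2 ratio of -0.085 with an interval from -0.62 to 0.45.

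The Delta-like ligands did not separate by genotype. Dll1 read 3793 and 3142 in the null pools, against 4168 and 3165 in the wild-type pools, at a log2 ratio of -0.073 with a 95% interval from -0.36 to 0.21. Dll4, the ligand of sprouting vessels, read 752 and 962 in the null pools on its tested probe set (1421827_at), against 792 and 637 in the wild-type pools. The sets disagreed in sign, -0.071 and 0.56, and the estimate of 0.25 had an interval from -0.44 to 0.93. Its second probe set (1421826_at) read 459 and 293 in the null pools, against 689 and 268 in the wild-type pools, and 1 of these 4 readings was above the unspecific level.

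Both targets read lower in the null pools of both sets, without overlap. Hey1, a repressor of the Hes and Hey family, read 32237 and 26935 in the null pools, against 40752 and 34801 in the wild-type pools. It fell by 0.35 ± 0.082 on the log2 scale (adjusted p = 0.017), to 78.3% of the wild-type signal, with -0.34 in set 1 and -0.37 in set 2. Hes1, a repressor often used as a readout of the pathway, read 2564 and 2436 in the null pools, against 3366 and 3566 in the wild-type pools. Its difference was larger in size than that of Hey1, -0.46 ± 0.14, but its standard error was larger too and it missed the threshold (adjusted p = 0.0709). The 95% interval of Hes1, from -0.77 to -0.15, lay below 0 before adjustment over all probe sets.

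**Figure D2:**
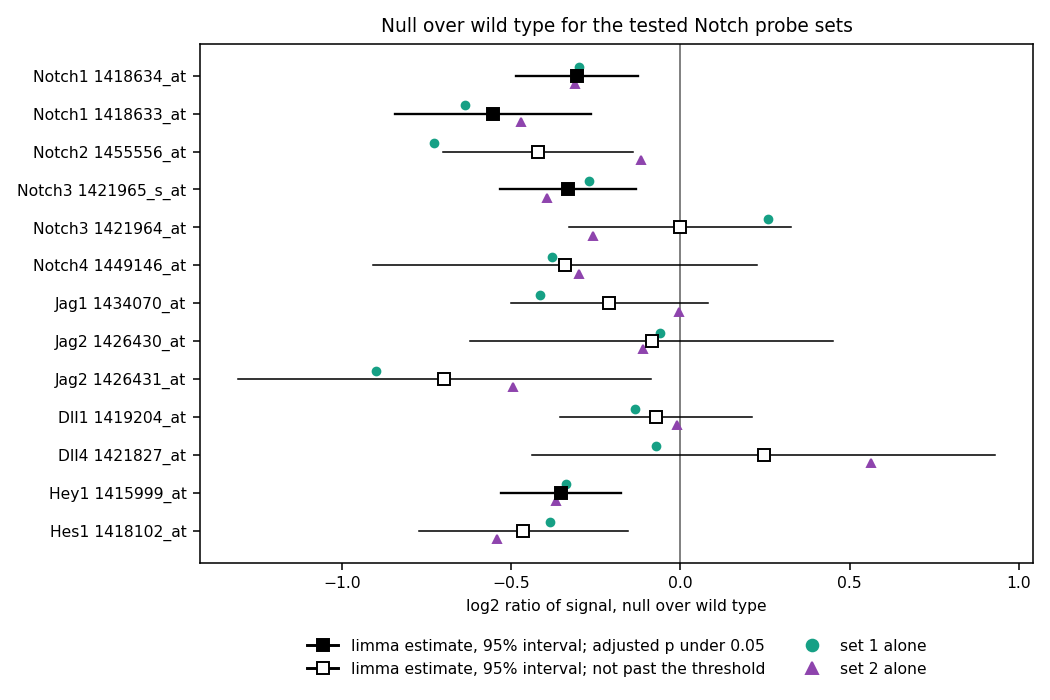
Log2 ratio of signal, null over wild type, for the 13 tested Notch probe sets; squares are limma estimates with 95% intervals (filled where the adjusted p was under 0.05), circles set 1 alone and triangles set 2 alone. The 4 filled squares are both Notch1 probe sets, 1421965_s_at of Notch3 and Hey1, and the sets disagree in sign only for 1421964_at of Notch3 and for Dll4.

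Because these are bulk tumor samples, fewer cells of a type and less RNA per cell cannot be told apart. Markers of other cell types that a tumor can hold moved in different directions. Over all genes, 5.18% were called higher and 3.59% lower, and the marker counts were not tested against these shares. Of 10 tested basal and myoepithelial markers 6 fell and 0 rose, with a median log2 ratio of -0.55 (Oxtr, the oxytocin receptor gene, at -0.85 and Krt5, a basal keratin, at -0.53). In both sets 8 of the 10 were lower in the null pool and 1, Krt17, was higher (0.58 and 0.35). Krt14 went opposite ways, at 0.0074 in set 1 and -0.73 in set 2. The summed signal of the 10 was 115165 and 135230 in the null pools, against 151819 and 167269 in the wild-type pools. Most of each sum came from Acta2, at 72917 and 92012 in the null pools, against 86649 and 99265 in the wild-type pools. Acta2 was not called (log2 -0.18, limma adjusted p = 0.282). Of 11 luminal markers 4 rose and 0 fell, with a median of 0.21. In both sets 6 of the 11 were higher and 5 lower in the null pool (Epcam, Cdh1, Elf5, Foxa1 and Esr1), and their summed signal was 586852 and 617931 in the null pools, against 535947 and 504579 in the wild-type pools. Of 10 tested endothelial markers 3 rose and 0 fell, with a median of 0.57 and a sum over all 12 of 18639 and 18475 in the null pools, against 11643 and 12836 in the wild-type pools. Of 3 tested pericyte markers Rgs5 and Pdgfrb rose by 0.88 and 1.09 on the log2 scale and Cspg4 was at -0.31, and the sum over 4 was 19866 and 21441 in the null pools, against 11888 and 11556 in the wild-type pools. All 9 fibroblast markers rose, with a median of 1.11 and sums of 395672 and 453120 in the null pools, against 191081 and 208616 in the wild-type pools. Of 5 adipocyte markers tested 4 rose (median 1.41), of 5 macrophage markers 2 rose (median 0.15), and the 1 neutrophil marker tested, S100a8, fell by 1.86. The other 2 neutrophil markers on the array, S100a9 and Elane, were within the unspecific level on all 4 arrays. None of the markers was listed at 0, and the part of these cell types in the Notch values was not tested.

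Notch3 also differed between the 2 sets. Over both genotypes, 1421964_at of Notch3 read 4654 and 5582 in set 2, against 2268 and 1889 in set 1, and 1421965_s_at read 10250 and 13481 in set 2, against 7438 and 8982 in set 1. Both probe sets were higher in set 2 in each genotype, with log2 differences, set 2 over set 1, of 1.28 ± 0.15 (limma adjusted p = 5.005e-05) and 0.52 ± 0.094 (adjusted p = 0.0013). Hey1 went the other way and was lower in set 2, by a log2 difference of -0.24 ± 0.082 (adjusted p = 0.046), a call that was lost when every probe set was tested. These are 2 of the 13 higher and 1 lower in set 2, while across the array 11.1% were higher and 12.5% lower. Jag1 on its bright probe set and Dll1 were below set 1 in both pools of set 2 (-0.32 and -0.33), and 1426430_at of Jag2 was above it (0.69), but none of these 3 passed (adjusted p = 0.105, 0.0853 and 0.0593). The sets also differ in RNA quality by the Gapdh ratios above, and within set 2 the null pool had the higher ratio. The part of RNA quality in these set differences, and in the genotype ratios, was not tested. The brighter Notch1 probe set was at -0.014 between sets and Hes1 at 0.0051.

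The wider pathway was read from a list of 84 other genes in 7 roles, of which 79 were on the array and 65 were tested on their brightest probe set. Limma called 8 of the 65, 4 higher and 4 lower, where 5.18% of all 11514 genes were called higher and 3.59% lower on the same basis. The median log2 ratio of the 65 was -0.0072, beside -0.0082 over all genes, and 23 of the 65 were lower in both sets and 22 higher in both. On the same basis, 9 of the 10 Notch genes above were lower in both sets and 0 higher, where 33.5% of all genes were lower in both and 31.8% higher. Of those 10 genes limma called 3 lower and 0 higher. The difference between the lists was not tested. With all 120 tested probe sets of these genes 14 were called, 7 higher and 7 lower. Of all probe sets tested on the array, 4.05% were called higher and 3.25% lower. Pofut1, Nedd4, Crebbp and Snw1 were called on a probe set that was not their brightest. As for the 10 genes, limma called 0 of the 65 once the set term was dropped (8 at an unadjusted p under 0.05), and 0 with the set term but a variance free of the trend (11 unadjusted).

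**Figure D3:**
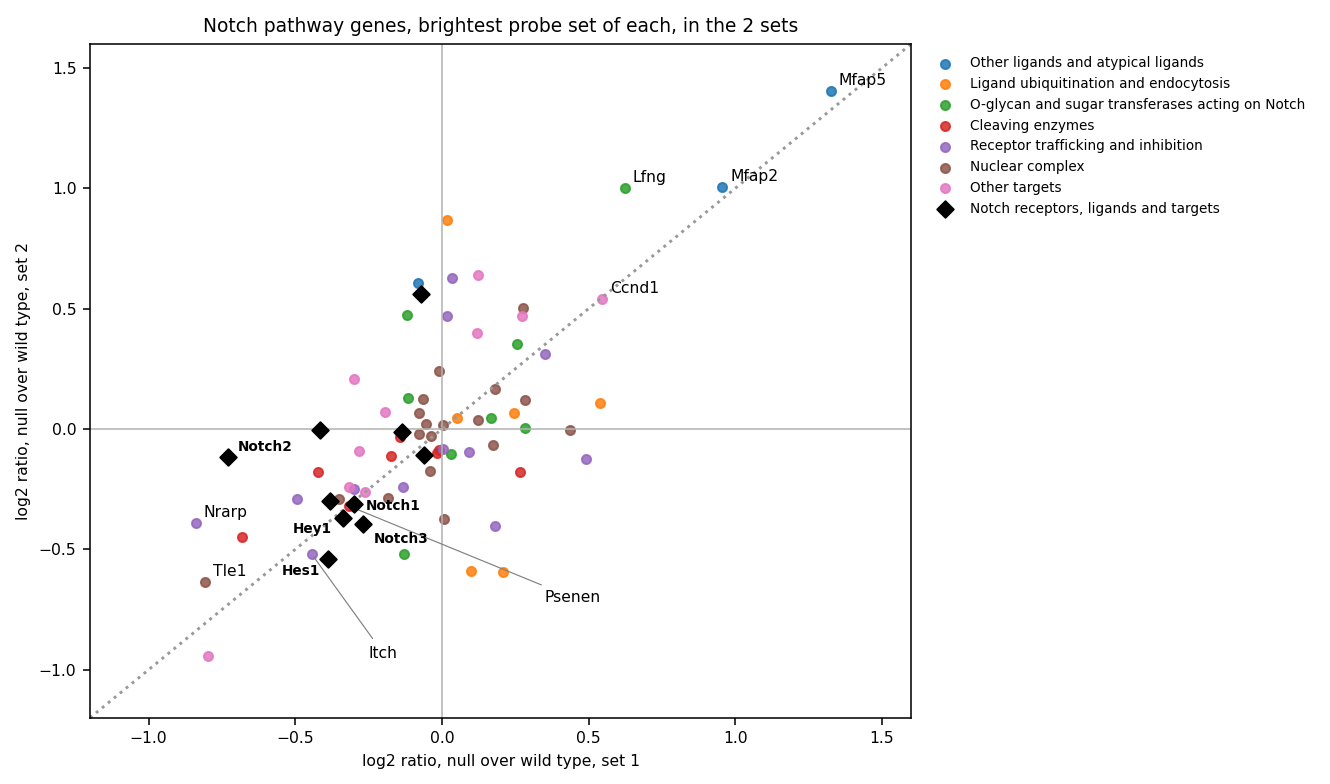
Log2 ratio, null over wild type, in set 1 (horizontal) and set 2 (vertical) for the 65 tested genes of the wider Notch pathway, coloured by role, and for the 10 Notch receptors, ligands and targets (black diamonds), with the brightest probe set of each gene. The dotted line marks equal ratios; names mark the 8 pathway genes past the threshold and, in bold, 5 of the 10 genes, with Notch1, Notch3, Hey1 and Hes1 close together at the lower left.

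Of 12 tested genes of receptor trafficking and inhibition 2 fell, and of 18 tested genes of the nuclear complex 1 fell, on the brightest probe set of each gene. In either role 0 rose. Over all genes, 3.59% were called lower and 5.18% higher, and these small counts were not tested against those shares. Nrarp, a small feedback inhibitor and a direct target of the pathway, read 2292 and 2892 in the null pools, against 4135 and 3803 in the wild-type pools. Its groups did not overlap and it fell by 0.61 ± 0.15 on the log2 scale (adjusted p = 0.0219). A second, dimmer probe set of Nrarp was at -0.66 ± 0.37 and did not pass. Itch, a ubiquitin ligase that sends Notch for degradation, read 4337 and 2185 in the null pools, against 5917 and 3152 in the wild-type pools, and fell by 0.48 ± 0.13 (adjusted p = 0.0369). Its other 2 tested probe sets were at -0.22 and -0.23. Tle1, a Groucho co-repressor that Hes proteins recruit, read 4219 and 3120 in the null pools, against 7424 and 4872 in the wild-type pools, and fell by 0.72 ± 0.12 (adjusted p = 0.00146). Its second tested probe set was at -0.064 ± 0.13 and did not pass. Crebbp, a co-activator of the Notch complex, was at -0.32 ± 0.095 on its brightest probe set (adjusted p = 0.0587), but another read 9571 and 4459 in the null pools, against 12277 and 6740 in the wild-type pools, and fell by 0.47 ± 0.10 (adjusted p = 0.0109). Snw1, a nuclear partner of the complex, was likewise at -0.049 on its brightest probe set and fell by 0.47 ± 0.13 on another (adjusted p = 0.0374). Nedd4, a ubiquitin ligase, gave opposite answers. Its brightest probe set by the mean of 4 arrays was at -0.28 ± 0.083 (adjusted p = 0.0622) and a second at -0.21 (adjusted p = 0.169), while the other read 54117 and 19647 in the null pools, against 22266 and 10929 in the wild-type pools, and rose 2.09-fold (log2 1.06 ± 0.10, adjusted p = 1.204e-05).

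Of the enzymes that cut Notch, 7 of 8 tested genes were lower in both sets on their brightest probe set, where 33.5% of all genes were. Some of these log2 ratios were small, as for Adam17 (-0.0095 in set 1 and -0.088 in set 2) and Furin (-0.019 and -0.099). The other tested probe sets of Adam17 and Aph1a went opposite ways in the sets, while that of Aph1b was lower in both (-0.48 and -0.41). Of the 8, 1 fell, where 3.59% of all genes were called lower. It was Psenen, a subunit of gamma-secretase, which read 29375 and 20964 in the null pools, against 36571 and 26198 in the wild-type pools (log2 -0.32 ± 0.082, adjusted p = 0.0302). Ncstn, the substrate-binding subunit of the same complex, read 1841 and 1914 in the null pools, against 2977 and 2624 in the wild-type pools, at -0.56 ± 0.17, and missed the threshold (adjusted p = 0.0563). Adam10, a membrane protease that cuts the receptor before gamma-secretase does, went opposite ways in the sets on its brightest probe set, 0.26 and -0.18.

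Of 8 tested sugar transferases that act on Notch, 1 rose, where 5.18% of all genes were called higher. The gene was Lfng, lunatic fringe, which extends O-fucose on the receptors. It read 2334 and 3200 in the null pools, against 1499 and 1575 in the wild-type pools, and was higher by a log2 ratio of 0.81 ± 0.18 (adjusted p = 0.0126), or 1.76-fold. Both null pools lay above both wild-type pools. The second Lfng probe set read at most 66.2, within the unspecific level. Mfng and Rfng, the other fringes, were at 0.11 and 0.18 and did not pass. The probe sets of Pofut1, which adds the O-fucose, disagreed. Its brightest was at 0.0064 ± 0.15 and did not pass. A second read 1172 and 281 in the null pools, against 1917 and 1333 in the wild-type pools. This second probe set fell by 1.39 ± 0.33 on the log2 scale (adjusted p = 0.0182), with -0.69 in set 1 and -2.08 in set 2. The reading of 281, in the null pool of set 2, was within the unspecific level. The remaining Pofut1 probe set was at -0.58 ± 0.36 (adjusted p = 0.406).

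Among the 65 tested genes, the largest log2 ratios belonged to proteins of the extracellular matrix that can bind Notch or its ligands. Mfap5, a microfibril protein, read 12983 and 12998 in the null pools, against 5150 and 4881 in the wild-type pools, and rose 2.58-fold (log2 1.37 ± 0.098, adjusted p = 6.797e-07). Mfap2, its relative, read 2175 and 1459 in the null pools, against 1100 and 705 in the wild-type pools, and rose 1.97-fold (log2 0.98 ± 0.23, adjusted p = 0.018). Both are also made by fibroblasts, whose 9 markers all rose, and the part of fibroblasts in these 2 rises was not tested. Of the other 4 genes in this role Dlk2 was tested and did not pass (adjusted p = 0.716), while Dll3, Dlk1 and Dner were dim. Among 6 tested genes that tag or internalise ligands 0 passed. Neurl1b, a ubiquitin ligase of the Neuralized family, was at 0.44 ± 0.28 (adjusted p = 0.414), with 0.016 in set 1 and 0.87 in set 2, and Epn2, an epsin, was at 0.32 ± 0.14 (adjusted p = 0.208).

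Of 10 other targets tested, 1 rose and 0 fell, near the shares over all genes (5.18% and 3.59%), with a median log2 ratio of -0.055. Nrarp, also a target, is not among these 10: it was counted above under inhibition, and it fell. Ccnd1, the cyclin D1 gene and a target of many pathways, rose 1.46-fold and read 41574 and 45366 in the null pools, against 28436 and 31196 in the wild-type pools (log2 0.54 ± 0.082, adjusted p = 7.75e-04). A second Ccnd1 probe set rose as well, by 0.36, and the third was at 0.25 (adjusted p = 0.0899). Hey2, another Hey repressor, read 487 and 447 in the null pools, both within the unspecific level, against 878 and 901 in the wild-type pools, or at least 1.53-fold lower, and did not pass (log2 -0.87 ± 0.35, adjusted p = 0.162). Heyl, the third Hey gene, was at 0.38 ± 0.26 (adjusted p = 0.462). Hes5 was dim, at 287 and 540 in the null pools, against 155 and 202 in the wild-type pools, all within the unspecific level.

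The stretches before the gene starts are shown for Notch1 and Notch3, the 2 receptors with a call, and for Lfng, the only gene searched with a pair of RBPJ core matches. The sequences are RefSeq's, from build GRCm38.p6, and cover the 250 bases before the annotated start, 5′ to 3′ along the gene. The windows are chr2:26503823-26504072 (minus strand), chr17:32166891-32167140 (minus strand) and chr5:140607091-140607340 (plus strand). Capitals mark the GC box in Notch1 and Notch3 (GGGCGG, or CCGCCC on the other strand), the letters bound by Sp factors. In Lfng they mark the RBPJ core (TGGGAA, or TTCCCA on the other strand), the letters bound by the DNA-binding partner of Notch.
Notch1: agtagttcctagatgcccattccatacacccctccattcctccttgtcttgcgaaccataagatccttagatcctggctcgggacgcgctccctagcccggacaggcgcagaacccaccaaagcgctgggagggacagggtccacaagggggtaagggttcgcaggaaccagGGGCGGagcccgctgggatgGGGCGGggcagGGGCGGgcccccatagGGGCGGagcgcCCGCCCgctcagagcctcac
Notch3: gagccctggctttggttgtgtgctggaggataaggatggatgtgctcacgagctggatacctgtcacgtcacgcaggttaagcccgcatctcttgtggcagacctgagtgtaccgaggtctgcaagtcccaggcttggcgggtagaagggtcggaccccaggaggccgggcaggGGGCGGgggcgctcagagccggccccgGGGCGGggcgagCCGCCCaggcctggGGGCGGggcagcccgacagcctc
Lfng: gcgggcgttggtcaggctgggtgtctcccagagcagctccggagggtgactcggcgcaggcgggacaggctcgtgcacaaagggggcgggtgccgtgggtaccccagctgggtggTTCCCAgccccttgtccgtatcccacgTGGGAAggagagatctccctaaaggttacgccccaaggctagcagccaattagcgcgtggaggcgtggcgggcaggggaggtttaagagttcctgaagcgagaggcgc

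Notch1 held 5 GC boxes and Notch3 held 4, the nearest beginning 20 and 23 bases before the start. Notch2 and Jag2, which had no call, held 5 each, the nearest at 34 and 8 bases. A GC box was found before 5 of 9 annotated starts of the 8 members in the table, and before 32.7% of all 32851 starts. The RBPJ core was found before 0 of those 9 starts, 3 of 10 starts of the other named pathway genes (Lfng, Hey2 and 1 of 2 Psenen starts), and 21.6% of all starts. In Lfng the 2 cores begin 135 and 108 bases before the start, and the second overlaps a match of the E box (CACGTG), which 6.02% of starts hold. The N box (CACNAG), the letters that Hes1 binds, was found before Notch1, Notch2, Notch3 and Dll4, among 36.7% of all starts. Nrarp, which fell, held no RBPJ core in this window. Each match describes these letters in this window only.

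**Figure D4:**
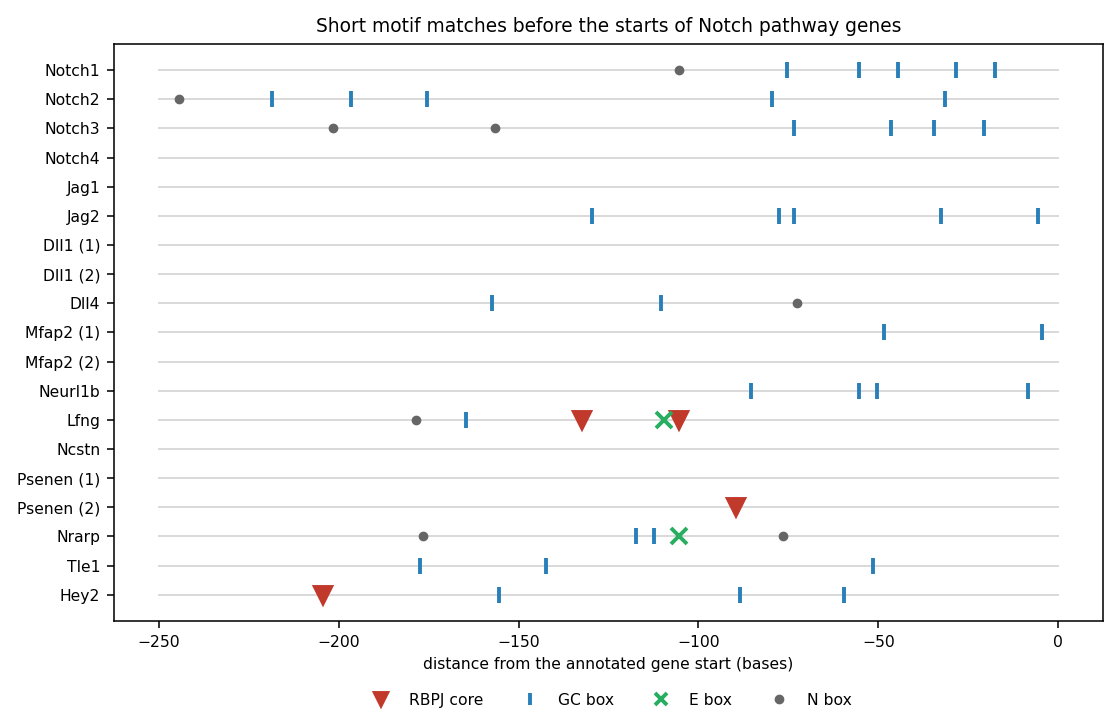
Positions of 4 short motifs, on either strand, in the 250 bases before the annotated starts of 8 Notch members and 8 named pathway genes; the horizontal axis is the distance from the start in bases, and numbers in brackets tell apart 2 starts of 1 gene. Blue bars (GC box) lie before Notch1, Notch2, Notch3, Jag2 and Dll4 among the members, and red triangles (RBPJ core) appear only for Lfng, the second Psenen start and Hey2.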

How the data were processed

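RNA from 4 pools of 3 mammary tumors was measured on 1-colour Affymetrix Mouse Genome 430 arrays. The authors deposited linear signal intensities made with MAS5, per the submitters' processing notes, which as used here name no MAS5 version. The deposited values had equal 2% trimmed means on the 4 arrays and were used as they were. Of 45101 probe sets 64 controls were left out, and genes were named from the platform annotation.

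Values became log2(intensity + 44), where 44 is the 10th percentile, which understates changes of dim genes. Probe sets whose mean reached the median (22519) were fitted with limma 3.58.1 in R 4.3.3 (lmFit, eBayes with an intensity trend, terms genotype and set, Benjamini-Hochberg over all, threshold 0.05), with 1 residual degree of freedom and 13.0 prior ones. Standard errors and adjusted p-values in the text are limma's, with n = 2 pools per genotype. The 13 member probe sets were set beside all tested probe sets. For the wider pathway and marker lists, and for the 10 genes beside the pathway list, 1 probe set per gene, the brightest, was used unless stated. The set term follows the pairing in the series' design text; within a set, the 2 pools' departures from their genotype means had a correlation of 0.605. An exact permutation test of 2 against 2 arrays cannot go below p = 0.333. The fit was also run on simulated data, drawn with normal noise from the prior variances fitted to these arrays. Such data share the assumptions of the fit, so they cannot test whether those hold here.

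The members, lists and the naming rule were chosen with earlier results of these data known. The rule named every member, each pathway gene past the threshold, and per role the tested gene with the largest change of the same sign in both sets; other genes were named, and the 3 promoters picked, after their values were seen. Protein sequences and the Hes1 and Hey1 promoters were not used here. Alternatives were other normalizations, pseudocounts and filters, no trend, no set block, each array left out and each set alone. With 4 arrays, precision is limited by their number.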

Additional observations from a re-analysis of the deposited data

How the results depend on the processing

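The 4 member calls held under quantile normalization, pseudocounts of 1 and 176 (the 25th percentile) and a filter at the 75th percentile, with 4 calls each, and under a filter on mean log2 values chosen after seeing the data. Cyclic loess left 3 calls and testing every probe set left 2, those of Hey1 and of 1418633_at of Notch1. Without the intensity trend limma called 0 over all probe sets (3486 at an unadjusted p under 0.05), 0 members (4), 0 other pathway genes (11) and 0 member differences between sets (4). Testing every probe set left 2 higher and 0 lower calls between sets, so that of Hey1 was lost. With no replicate block, that is without the set term, it called 0 over all probe sets (1280 at an unadjusted p under 0.05), 0 members (2) and 0 other pathway genes (8), against 1645, 4 and 8 with the paired fit; the cause was not tested. Leaving out 1 array, also without the block since the blocked fit then has no residual degree of freedom, gave 4 to 27 calls (19 without the first null array) over all probe sets, 0 for members (0 to 1 at an unadjusted p under 0.05) and 0 for other pathway genes (3 to 5). With all probe sets of the pathway genes, 14 were called, 7 higher and 7 lower. The members' median log2 ratio was -0.30 in set 2 alone and -0.30 with the larger pseudocount, and ranged from -0.43 (-0.4225 without the first wild-type array) to -0.21 with 1 array left out. The pathway median was 0.0096 without a filter, and with 1 array left out it was 0.0825 and -0.051 (first and second null array) and -0.0492 and 0.0444 (first and second wild-type array). Signs turned for 5 uncalled probe sets, among them Dll4 in set 1 alone, and for 0 called ones. 1421964_at of Notch3 was at 0.031 after quantile normalization, 0.019 after cyclic loess and 8e-04 with a pseudocount of 1, and at 0.51 and 0.77 without the first null or the second wild-type array. With 1 array left out, Dll1 was at 0.0617 and 0.12, 1434070_at of Jag1 at 0.0532, and 1426430_at of Jag2 at 0.25 and 0.27. Quantile and loess scaling moved the median ratio of all probe sets by 0.021 and 0.025. Low signal limits the 6 dim member probe sets, which could not be tested.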

Other observations

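The genes whose pattern over the 4 arrays was most like that of 1426431_at of Jag2, the tested member probe set with the largest ratio in size, were Susd4, a gene for a sushi-domain membrane protein, Gm19935 and Pilra, which encodes an inhibitory receptor of myeloid cells. Their deviations from their own mean lay within a Euclidean distance of 0.077, 0.092 and 0.096 on the log2 scale of those of Jag2, where the median probe set lay at 0.82. Susd4 read 517 and 618 in the null pools, against 1060 and 895 in the wild-type pools, Gm19935 read 808 and 994 in the null pools, against 1475 and 1310 in the wild-type pools, and Pilra read 624 and 741 in the null pools, against 1096 and 1043 in the wild-type pools. None of the 3 passed the threshold (limma adjusted p = 0.206, 0.185 and 0.252), and likeness over 4 arrays is a description only.

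Genes of the wider pathway that stood near the threshold without passing it on any probe set included Tle4, a Groucho co-repressor, at 0.39 ± 0.12 (adjusted p = 0.076), and Cdkn1a, the cell cycle inhibitor p21, at 0.37 ± 0.11 (adjusted p = 0.0507). They were chosen after their values were seen. A test of the difference between Tle4 and Tle1, which fell, was not run. Rbpj, the DNA-binding partner of Notch, read 6911 and 6680 in the null pools, against 5675 and 6140 in the wild-type pools, at 0.20 ± 0.11 (adjusted p = 0.314), and a second probe set was at 0.43 ± 0.13 (adjusted p = 0.0664).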
